A study of Rattus norvegicus with 6 samples.

Results

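Fc receptors and the first signalling steps behind them in myeloid cells were examined as a group of 9 genes, chosen by their symbols from the 19616 genes in the table. They were Fcer1g, Fcgr1a, Fcgr2a, Fcgr2b, Fcgr3a, Syk, Lyn, Lilrb4 and Ptpn6, and 8 of the 9 passed the filter on low values (a mean of at least 0.1 FPKM over all rats) and were tested. RNA from the livers of 3 male SD rats with CCl4-induced fibrosis (FL group, rats FL2, FL5 and FL12) and of 3 male SD control rats (CL group, rats CL5, CL6 and CL7) had been sequenced, with 1 library per rat. Each FL rat was dosed for 5 weeks with a 1:1 mixture of CCl4 and olive oil, at 2 injections into the peritoneum per week and 2 mL per kg each. The CL rats received an equal volume of the oil without CCl4. The age of the rats, and how these 6 were chosen from the larger groups of the experiment, are not given in the sources used here. The study was directed at long non-coding RNAs of the fibrotic liver, and the same libraries also measured the protein-coding genes described here. Where a value is given for every rat, the order is CL5, CL6, CL7 for the CL rats and FL2, FL5, FL12 for the FL rats. Levels are in FPKM, which are fragments of a transcript divided by its length and by the number of fragments mapped in the library, so that levels of different genes can be set side by side.

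Fc receptors bind the constant part of antibodies, and in the liver they are known from Kupffer cells, the resident macrophages, and from the sinusoidal endothelium, which clear antibody complexes from the blood. Activating receptors signal through an immunoreceptor tyrosine-based activation motif (ITAM), often on the shared gamma chain encoded by Fcer1g, which Src family kinases such as Lyn phosphorylate and to which the kinase Syk then binds. Inhibitory receptors such as Fcgr2b and Lilrb4 carry an inhibitory motif (ITIM) instead, which recruits phosphatases, among them SHP-1, the product of Ptpn6.

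Of the 8 genes tested, 4 were called higher in the FL group, with an adjusted p under 0.05 in limma and a change of at least 2-fold, where 9.29% of the 14864 genes tested were called higher. These were the shared gamma chain Fcer1g, the high-affinity IgG receptor Fcgr1a, the kinase Syk and the inhibitory receptor Lilrb4. None of the 8 was called lower by limma, where 0.935% of all genes tested were, and none was lower at an unadjusted p under 0.05 either (0 of 8), where 4.04% of all genes were. At an adjusted p under 0.05 whatever the fold, 6 of the 8 were higher, adding Lyn and Ptpn6, where 16.9% of all genes were. In 6 of the 8 genes tested every FL rat was above every CL rat, which was so for 35.7% of all genes tested. The inhibitory receptor Fcgr2b, the most abundant of the 9 in both groups by its mean, did not pass the test and its groups overlapped. All of these values come from whole liver, where more cells of a type and more RNA per cell, or fewer cells and less RNA per cell, cannot be told apart. The median log2 fold change of all genes tested was 0.29 rather than 0, and it was 0.076 after scaling by the median and -0.045 after quantile normalization, so changes are also given below relative to that median.

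**Figure D1:**
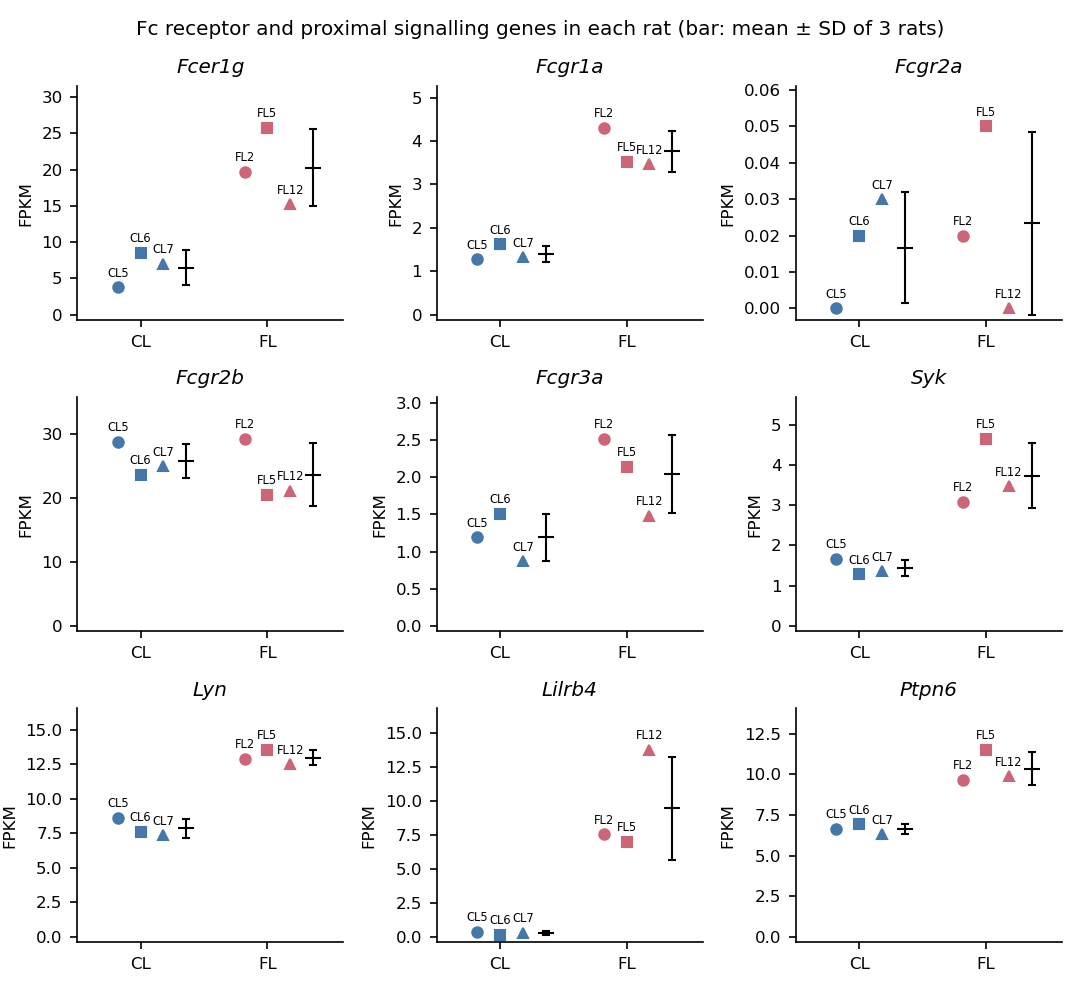
FPKM of each of the 9 genes (vertical axes, linear and different for each gene) in the 3 CL rats (blue) and the 3 FL rats (red); 1 point is 1 rat, and the black bars are the mean ± SD of 3 rats. The FL rats lie above the CL rats for Fcer1g, Fcgr1a, Syk, Lyn, Lilrb4 and Ptpn6, while the groups overlap for Fcgr2a, Fcgr2b and Fcgr3a.

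Fcer1g encodes the gamma chain that carries the ITAM for several activating Fc receptors. Its level was 3.81, 8.55 and 7.06 FPKM in the CL rats and 19.73, 25.78 and 15.24 FPKM in the FL rats. The lowest FL rat, FL12, was thus above the highest CL rat, CL6, and within the controls CL5 stood below the others. The mean rose from 6.47 ± 2.42 to 20.3 ± 5.29 FPKM (standard deviation, SD, n = 3 each). On the log2(FPKM + 0.1) scale the increase was 1.67 with a standard error (SE) of 0.31 (adjusted p = 0.0112 by limma), or 1.39 above the median of all genes. Its adjusted p lay between 0.00885 and 0.0542 over the alternatives, and the highest of these, without the filter on low values, ended the call.

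Among the 4 receptors for IgG in the group, Fcgr1a, the high-affinity one, was the one with a called change. Fcgr1a was at 1.28, 1.62 and 1.32 FPKM in the CL rats and at 4.31, 3.52 and 3.47 FPKM in the FL rats. The groups were far apart compared with the spread within each, with means of 1.41 ± 0.186 and 3.77 ± 0.471 FPKM (SD, n = 3). Its log2 fold change was 1.36 (SE 0.17, adjusted p = 0.00414 by limma), and 1.07 relative to the median of all genes. The adjusted p stayed between 0.00274 and 0.0232 over the alternatives, but the change was under 2-fold, at 0.98 and 0.94 on the log2 scale, with a pseudocount of 1 and after quantile normalization.

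Fcgr3a, an activating receptor, was at 1.19, 1.51 and 0.87 FPKM in the CL rats and at 2.52, 2.14 and 1.48 FPKM in the FL rats. FL12 was just below CL6, so the groups overlapped, while FL2 and FL5 were above every control. The means were 1.19 ± 0.32 and 2.05 ± 0.526 FPKM (SD, n = 3), and the log2 difference of 0.73 (SE 0.27, 95% confidence interval 0.12 to 1.35) did not pass (adjusted p = 0.0918 by limma). Fcgr2a was listed at 0, 0.02 and 0.03 FPKM in the CL rats and at 0.02, 0.05 and 0 FPKM in the FL rats. It was too low to be tested, and the groups overlapped.

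The names of Fcgr2a and Fcgr3a need care. In the RefSeq annotation of the assembly GRCr8, Fcgr3a and Fcgr3 are listed as synonyms of Fcgr2a, while Fcgr4 is a synonym of Fcgr3a, so the row called Fcgr3a (ENSRNOG00000024382) may be the gene known as Fcgr4 elsewhere. All of Fcgr2a, Fcgr2b and Fcgr3a are on chromosome 13 as neighbours, next to near copies, and only reads with a single position were counted, so reads of similar stretches could be lost or split. A further row of the table whose description names an Fc gamma receptor, LOC103693683, also on chromosome 13, was at 0.18, 0.22 and 0.21 FPKM in the CL rats and at 0.67, 0.91 and 0.76 FPKM in the FL rats. Every FL rat was above every CL rat for it, and its log2 fold change was 1.53 (SE 0.27, adjusted p = 0.01 by limma, 0.00832 to 0.0516 over the alternatives); it was not called with a pseudocount of 1 or after quantile normalization.

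Fcgr2b, the inhibitory IgG receptor with an ITIM, was at 28.79, 23.63 and 24.96 FPKM in the CL rats and at 29.29, 20.54 and 21.15 FPKM in the FL rats. The highest and the lowest of the 6 values were both in FL rats, and FL2 was level with CL5. The means were 25.8 ± 2.68 and 23.7 ± 4.89 FPKM (SD, n = 3). The log2 difference was -0.14 (SE 0.16, adjusted p = 0.571 by limma), and its 95% confidence interval of -0.51 to 0.24 leaves out a 2-fold change in either direction, though not a smaller one. Over 14 alternatives, the scalings included, the difference lay between -0.36 and -0.046. Relative to the median of all genes it was -0.43.

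Syk binds doubly phosphorylated ITAMs and passes the signal on. It was at 1.67, 1.28 and 1.36 FPKM in the CL rats and at 3.09, 4.66 and 3.47 FPKM in the FL rats. FL5 was the highest rat, and FL2, the lowest of its group, was still well above CL5. The means were 1.44 ± 0.206 and 3.74 ± 0.819 FPKM (SD, n = 3), with a log2 fold change of 1.31 (SE 0.20, adjusted p = 0.00651 by limma), and 1.02 relative to the median of all genes. The change was under 2-fold with a pseudocount of 1 (0.95) and after quantile normalization (0.91), with an adjusted p between 0.00462 and 0.0332 over the alternatives.

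Lyn, the Src family kinase that phosphorylates both kinds of motif, was at 8.63, 7.60 and 7.35 FPKM in the CL rats and at 12.88, 13.55 and 12.48 FPKM in the FL rats. The rats of each group lay close together and the groups did not overlap. The means were 7.86 ± 0.679 and 12.97 ± 0.541 FPKM (SD, n = 3), and the log2 fold change of 0.72 (SE 0.11, adjusted p = 0.00717 by limma) was under 2-fold and so not called. Relative to the median of all genes the change was 0.43.

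Ptpn6, the gene of the phosphatase SHP-1, was at 6.64, 6.94 and 6.31 FPKM in the CL rats and at 9.67, 11.52 and 9.87 FPKM in the FL rats. As for Lyn, the groups did not overlap and the change was under 2-fold. The means were 6.63 ± 0.315 and 10.4 ± 1.02 FPKM (SD, n = 3), with a log2 fold change of 0.63 (SE 0.12, adjusted p = 0.0126 by limma), and 0.34 relative to the median of all genes. The adjusted p was 0.0688 after quantile normalization and 0.055 without CL7, and 0.00998 at its lowest.

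Lilrb4, an inhibitory receptor of the leukocyte immunoglobulin-like family with ITIMs, was at 0.38, 0.16 and 0.30 FPKM in the CL rats and at 7.54, 6.99 and 13.75 FPKM in the FL rats. It was low in every control, and FL12 was clearly above the other FL rats. The mean went from 0.28 ± 0.111 to 9.43 ± 3.75 FPKM (SD, n = 3), a 33.7-fold ratio of the means. On the log2(FPKM + 0.1) scale, which understates the change of a gene this low in the controls, the increase was 4.63 (SE 0.32, adjusted p = 6.69e-04 by limma), or 4.34 relative to the median of all genes. Its adjusted p stayed between 4.66e-04 and 0.0178 over the alternatives, and the increase between 2.97 and 5.04.

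The order of the levels differed between the groups. In the CL group Fcgr2b was highest in every rat, followed by the means of Lyn, Ptpn6 and Fcer1g, where the range of Fcer1g overlapped those of both others. Then came Syk, Fcgr1a and Fcgr3a, whose ranges overlapped, and last Lilrb4 and Fcgr2a. In the FL group Fcgr2b and Fcer1g led with overlapping ranges, followed by the means of Lyn, Ptpn6 and Lilrb4, where the range of Lilrb4 overlapped those of both others. Then came Fcgr1a and Syk, also overlapping, and last Fcgr3a and Fcgr2a. Lilrb4 thus stood at rank 8 by its mean in the CL group and at rank 5 in the FL group. The spread within a group also varied between the genes. The coefficient of variation over 3 rats was 8.63% in CL and 4.17% in FL rats for Lyn, but 37.4% and 26.1% for Fcer1g and 39.8% and 39.8% for Lilrb4. No rat was highest or lowest for all 9 genes, with FL5 the highest FL rat for Fcer1g, Fcgr2a, Syk, Lyn and Ptpn6, FL2 for Fcgr1a, Fcgr2b and Fcgr3a, and FL12 for Lilrb4.

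Ratios of FPKM within a library do not change with the scaling between libraries, though with 0.1 added those of low genes can. The log2 ratios of FPKM + 0.1 of 7 pairs were compared between the groups by an exact two-sided permutation test, and ratios of FPKM itself are given beside them. With 3 rats against 3 the smallest p that this exact test can give is 0.1, so none could pass 0.05. The ratio of Fcgr1a to Fcgr2b, an activating against the inhibitory receptor, was 0.0445, 0.0686 and 0.0529 in the CL rats and 0.147, 0.171 and 0.164 in the FL rats. The groups did not overlap, and the log2 ratio was higher by 1.50 in the FL group (exact p = 0.1, adjusted p = 0.175 over the 7 ratios). The ratio of Fcgr3a to Fcgr2b did not overlap between the groups either, at 0.0349 to 0.0639 in CL and 0.07 to 0.104 in FL rats, with a log2 difference of 0.87 (exact p = 0.1, adjusted p = 0.175). Nothing is read from the ratio of Fcgr2a to Fcgr2b, since Fcgr2a was at or near 0 in every rat and the added 0.1 largely sets it.

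The ratio of the 2 inhibitory receptors, Lilrb4 to Fcgr2b, was 0.0132, 0.00677 and 0.012 in the CL rats and 0.257, 0.34 and 0.65 in the FL rats. This log2 difference of 4.76 was the largest of the 7 (exact p = 0.1, adjusted p = 0.175). Syk over Ptpn6, the kinase against the phosphatase, was 0.217 ± 0.0336 in CL and 0.359 ± 0.0429 in FL rats (SD, n = 3), without overlap. Its log2 difference was 0.68 (exact p = 0.1, adjusted p = 0.175). Lyn over Ptpn6 was 1.19 ± 0.104 and 1.26 ± 0.0781 (SD, n = 3), and with a log2 difference of 0.086 the groups overlapped (exact permutation p = 0.4, adjusted p = 0.467). The gamma chain over the sum of Fcgr1a, Fcgr2a and Fcgr3a was 1.54, 2.71 and 3.18 in the CL rats and 2.88, 4.51 and 3.08 in the FL rats. CL7 was above FL2 and FL12 in that ratio, and the log2 difference of 0.54 had an exact p of 0.3 (adjusted p = 0.42).

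**Figure D2:**
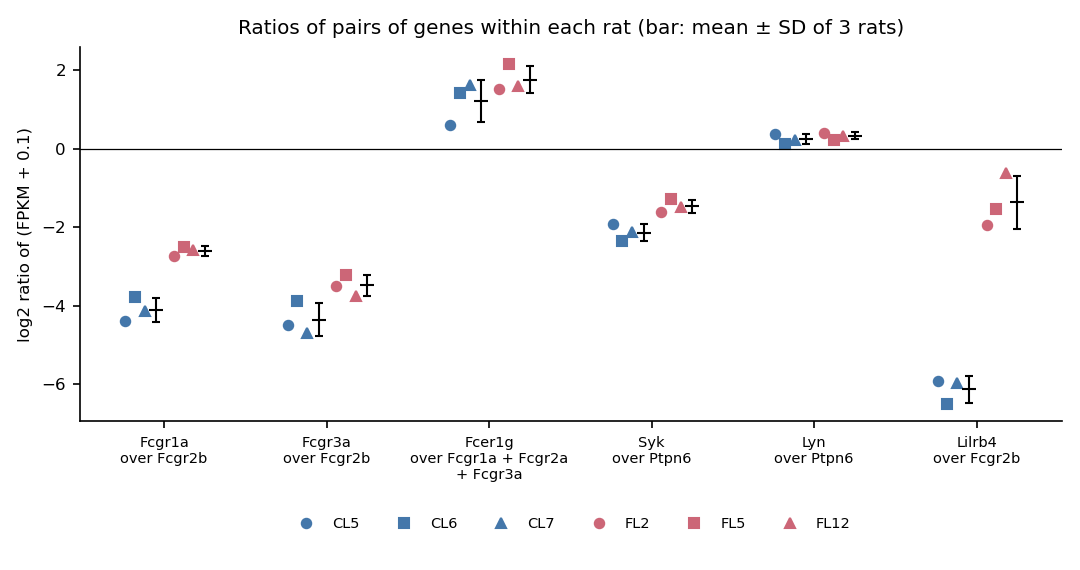
Log2 ratios of (FPKM + 0.1) of pairs of genes within each rat (vertical axis), for 6 of the 7 ratios (horizontal axis), with CL rats in blue, FL rats in red and black bars for the mean ± SD of 3 rats. The FL rats lie above the CL rats for Fcgr1a, Fcgr3a and Lilrb4 over Fcgr2b and for Syk over Ptpn6, while the groups overlap for the gamma chain over its receptors and for Lyn over Ptpn6.

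The genes that work beside these 9 were counted in 8 lists of Fc receptors, adaptors, kinases, effectors, inhibitory receptors and phosphatases, with 127 rows in the table. Of these, 114 were tested and 40 were called higher by limma (35.1%, where 9.29% of all genes tested were), with a median log2 fold change of 0.83 against 0.29 for all genes. None was called lower (0 by limma, and 2 of 114 lower at an unadjusted p under 0.05, Ptpn12 and Ceacam1, where 4.04% of all genes were). The lists were chosen with earlier results of these data known, so these shares are a description. Of the 40 genes called higher, Fcrl2, Trem2, Cd300lb and Lilrb3 passed the filter on low values only through the FL group. With a pseudocount of 1 and after quantile normalization 21 and 22 were called higher, where 462 and 453 of the 14864 genes tested were. These counts of all genes also stand beside the counts per list given below at the same settings. Of the genes named below, Lilra5, Src, Btk, Card9, Inpp5d and Pstpip1 were not called with a pseudocount of 1, after median scaling or after quantile normalization. Fcrl2 and Matk were not called with a pseudocount of 1, without the filter on low values or after quantile normalization. Lat2 was not called without the filter, after quantile normalization or with no trend in the prior variance. Dok2 was not called with a pseudocount of 1 or after quantile normalization, Fgr and Vav1 after quantile normalization, and Cd300lb, Pik3r5, Dok3 and Sla with a pseudocount of 1.

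**Figure D3:**
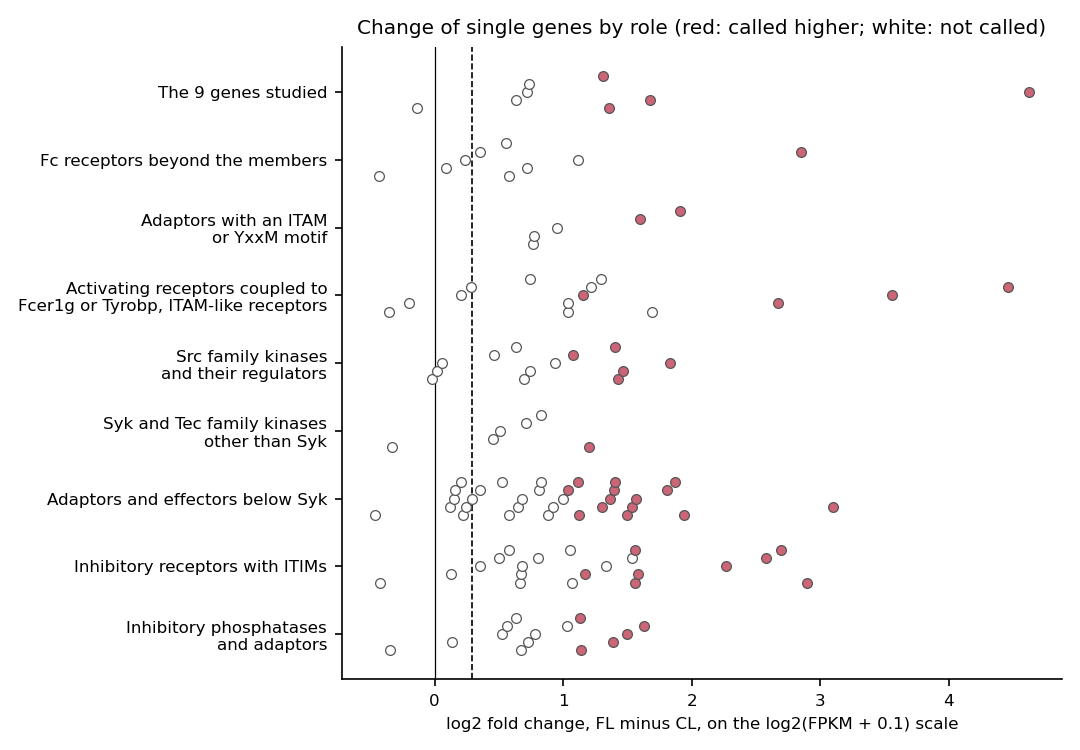
Log2 fold change of single genes, FL minus CL, on the log2(FPKM + 0.1) scale (horizontal axis) for the tested genes of the group of 9 (upper row) and of the 8 lists of related genes (other rows); 1 point is 1 gene, red where called higher and white where not called, and points are spread vertically for legibility only. The solid line marks 0 and the dashed line the median of all genes tested (0.29), and none of the related genes was called lower.

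Among Fc receptors beyond the 9, 1 of 9 tested was called higher, the Fc receptor-like gene Fcrl2, a share of 11.1% that was near the 9.29% of all genes tested. With no trend in the prior variance the count was 2. Fcrl2, with a CL mean of 0.01 FPKM, passed the filter on low values only through the FL group. Fcrl2 was at 0.01, 0.02 and 0 FPKM in the CL rats and at 0.13, 1.22 and 1.52 FPKM in the FL rats, and with a log2 fold change of 2.85 and an adjusted p of 0.0312 by limma it was also not called when CL5, CL6, CL7, FL5 or FL12 was left out (adjusted p from 0.0021 to 0.11 over the alternatives). Pigr, which carries polymeric immunoglobulin into bile, was the most abundant of this list, at 961.75, 939.39 and 935.51 FPKM in the CL rats and 738.29, 825.87 and 565.81 FPKM in the FL rats. Every FL rat was below every CL rat for Pigr, but the log2 difference of -0.43 (SE 0.23) did not pass (adjusted p = 0.215 by limma). Fcgrt, the neonatal Fc receptor that recycles IgG, was at 25.16 to 33.54 FPKM in CL and 27.65 to 32.11 FPKM in FL rats, with overlap and with a difference whose sign turned after median scaling and quantile normalization.

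Of the 5 other adaptors with an ITAM or a related motif, 2 were called higher (40%, where 9.29% of all genes tested were). Tyrobp (DAP12), the partner of many myeloid receptors, was at 10.40, 16.13 and 12.21 FPKM in the CL rats and at 38.65, 49.91 and 30.04 FPKM in the FL rats. Its log2 fold change of 1.60 (SE 0.22, adjusted p = 0.00491 by limma) stood beside 1.67 for Fcer1g, and in both genes FL5 was the highest and FL12 the lowest FL rat, and CL5 the lowest control. Hcst (DAP10) had a log2 fold change of 1.91 (SE 0.33, adjusted p = 0.00967 by limma).

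Of the receptors that couple to Fcer1g or Tyrobp, or that carry a motif of their own, 4 of 14 tested were called higher (28.6%, where 9.29% of all genes were), Trem2, Clec7a, Cd300lb and Lilra5. With a pseudocount of 1 the count was 2. Of these 4, Trem2 and Cd300lb, with CL means of 0.0833 and 0.0267 FPKM, passed the filter on low values only through the FL group. Trem2, a lipid-sensing receptor of macrophages, was at 0.06, 0.12 and 0.07 FPKM in the CL rats and at 2.30, 5.32 and 4.76 FPKM in the FL rats. Its log2 fold change of 4.46 (SE 0.35, adjusted p = 0.00102 by limma) stood beside 4.63 for Lilrb4, a difference between genes that was not tested. Clec7a (Dectin-1), which binds beta-glucan and signals through Syk, was at 0.22 to 0.37 FPKM in CL and 2.77 to 5.73 FPKM in FL rats, with a log2 fold change of 3.56 (SE 0.31, adjusted p = 0.00165 by limma).

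Of the Src family kinases and their regulators, 5 of 13 were called higher (38.5%, where 9.29% of all genes were), among them Src, Fgr, Matk and Ptprc. Another 4 were higher at an adjusted p under 0.05 with less than a 2-fold change, as were 7.65% of all genes. The count of 5 was 3 with a pseudocount of 1 and without FL5, and 2 after quantile normalization. Fgr, a myeloid relative of Lyn, was at 1.50 to 2.16 FPKM in CL rats and at 4.11 to 7.38 FPKM in FL rats. Its log2 fold change of 1.43 (SE 0.25) stood beside 0.72 for Lyn, again without a test between genes. Ptprc (CD45), the phosphatase of leukocytes that activates Src family kinases, was at 3.19, 3.25 and 3.12 FPKM in the CL rats and at 8.12, 10.19 and 8.72 FPKM in the FL rats, a log2 fold change of 1.47 (SE 0.13, adjusted p = 0.00165 by limma). Csk, which inhibits these kinases, was the most abundant of the list by its mean over all 6 rats, though not in the CL group alone, and rose by less than 2-fold, from 15.3 ± 1.12 to 24.8 ± 1.03 FPKM (SD, n = 3; adjusted p = 0.00673 by limma). Matk was also not called without CL5, CL7, FL5 or FL12 (adjusted p from 0.0178 to 0.0935 over the alternatives), and Src was not without FL5 (0.00421 to 0.0411).

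Of the other kinases of the Syk and Tec families, 1 of 6 was called higher (16.7%, where 9.29% of all genes were), Btk, which was at 0.55 to 0.87 FPKM in CL and 1.48 to 1.73 FPKM in FL rats (log2 fold change 1.20, SE 0.23, adjusted p = 0.0127 by limma). Btk was also not called without CL7 (adjusted p from 0.0127 to 0.0969 over the alternatives). Tec, the most abundant of the list, was at 8.14, 4.98 and 5.62 FPKM in the CL rats and at 4.64, 4.41 and 5.5 FPKM in the FL rats. Its groups overlapped, with CL5 above all other rats, and the log2 difference of -0.33 (SE 0.20) did not pass (adjusted p = 0.26 by limma). Without CL5 it was -0.13 (adjusted p = 0.621 by limma, from 0.0916 over the alternatives). Zap70, the relative of Syk in T cells, was at 0.06 to 0.23 FPKM in CL and 0.12 to 0.34 FPKM in FL rats, with overlap (the sign of the difference turned after quantile normalization), so that Syk was the more abundant of the pair in every rat.

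Below Syk, 14 of 32 adaptors and effectors tested were called higher (43.8%, where 9.29% of all genes were), and 8 were with a pseudocount of 1 and 7 after quantile normalization. Besides these 14, 7 more were higher at an adjusted p under 0.05 with less than a 2-fold change, as were 7.65% of all genes. The largest increase was that of Blnk, an adaptor that links Syk to phospholipase C gamma, at 0.22, 0.32 and 0.38 FPKM in the CL rats and 1.95, 5.27 and 3.60 FPKM in the FL rats (log2 fold change 3.10, SE 0.36, adjusted p = 0.00339 by limma). Vav1, an exchange factor for Rac, had a log2 fold change of 1.40 (SE 0.22, adjusted p = 0.00665 by limma), and Pik3r5, a regulatory subunit of PI3K gamma, one of 1.94 (SE 0.30, adjusted p = 0.0066 by limma). Lcp2 (SLP-76) and Plcg2 passed with less than a 2-fold change, at 0.92 and 0.88 on the log2 scale, and Lcp2 was called without CL5 (adjusted p = 0.0234 by limma, 0.00678 to 0.0765 over the alternatives, the highest after quantile normalization). For Plcg2 the adjusted p was 0.0256 by limma (0.0239 to 0.293 over the alternatives). It was over 0.05 after median scaling, after quantile normalization and without CL5, CL6, CL7, FL5 or FL12. Card9, at 0.21 to 0.23 FPKM in CL and 0.54 to 0.69 FPKM in FL rats, was called (log2 fold change 1.12, adjusted p = 0.0281 by limma) but not when any of CL5, CL6, CL7, FL5 and FL12 was left out, with an adjusted p of 0.0118 to 0.29 over the alternatives. The call of Lat2 was also lost without CL5, CL7, FL5 or FL12 (log2 fold change 1.87, adjusted p = 0.027 by limma, 0.0125 to 0.0941 over the alternatives). Grb2, the most abundant of the list by its mean over all 6 rats but not in the FL group alone, was at 15.04 to 16.30 FPKM in CL and 16.91 to 20.45 FPKM in FL rats and did not pass (adjusted p = 0.121 by limma).

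On the inhibitory side, 8 of 21 ITIM receptors tested were called higher (38.1%, where 9.29% of all genes were). Of these 8, Lilrb3, with a CL mean of 0.0867 FPKM, passed the filter on low values only through the FL group. The count was 6 with a pseudocount of 1, with the filter at 1 FPKM, after median scaling and after quantile normalization. Cd33 and Clec4a2, a sialic acid-binding and a C-type lectin receptor, had log2 fold changes of 2.89 (SE 0.48) and 2.70 (SE 0.29), and Clec12a one of 2.58 (SE 0.26). Sirpa, which binds CD47 and recruits SHP-1, was at 5.33, 5.02 and 5.95 FPKM in the CL rats and at 15.39, 15.82 and 17.26 FPKM in the FL rats (log2 fold change 1.56, SE 0.12, adjusted p = 9.39e-04 by limma). Ceacam1, the most abundant of the list and also a gene of hepatocytes, was at 33.71, 34.48 and 38.45 FPKM in the CL rats and at 28.16, 22.58 and 29.21 FPKM in the FL rats. Its FL rats were all below its CL rats, but the difference of -0.42 (SE 0.13) did not pass (adjusted p = 0.0617 by limma, 0.0286 after median scaling and 0.194 at its highest).

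Of the inhibitory phosphatases and adaptors, 5 of 14 were called higher (35.7%, where 9.29% of all genes were), namely Inpp5d, Dok2, Dok3, Sla and Pstpip1, the last not without CL7 (adjusted p from 0.0129 to 0.197 over the alternatives). The count was 0 by limma with a pseudocount of 1, where all 5 were under 2-fold, 2 after quantile normalization, and 3 after median scaling or with the filter at 1 FPKM. Inpp5d (SHIP-1), the lipid phosphatase that Fcgr2b recruits, was at 1.49, 1.39 and 1.32 FPKM in the CL rats and at 2.91, 3.52 and 3.14 FPKM in the FL rats. Its log2 fold change was 1.13 (SE 0.16, adjusted p = 0.00493 by limma). Ptpn11 (SHP-2), the broadly expressed relative of Ptpn6, was at 9.85 to 11.04 FPKM in CL and 10.44 to 12.73 FPKM in FL rats, with overlap (log2 difference 0.13, adjusted p = 0.454 by limma; the sign turned after median scaling and quantile normalization). Ptpn12, the most abundant of the list, was lower in every FL rat than in every CL rat, with a log2 difference of -0.35 that did not pass (adjusted p = 0.0568 by limma, 0.0218 to 0.175 over the alternatives). It was under 0.05 without the filter on low values, after median scaling, after quantile normalization and without FL2.

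Of 21 macrophage markers 8 were called higher (38.1%, where 9.29% of all genes were), and their summed level was 376.1, 349.9 and 359.6 FPKM in the CL rats and 710.6, 759.5 and 490.3 FPKM in the FL rats. Mpeg1 was the most abundant over all 6 rats (95.6 FPKM in CL and 87.7 FPKM in FL rats by the means), but by the mean of the FL group Gpnmb was above it, at 4.25, 3.65 and 4.11 FPKM in the CL rats and 64.72, 144.20 and 92.90 FPKM in the FL rats. Set against that sum, Fcgr2b was at 7.12% ± 0.477 in CL and 3.71% ± 0.879 in FL rats (SD, n = 3), Fcer1g at 1.81% ± 0.728 and 3.09% ± 0.309, and Lilrb4 at 0.0767% ± 0.0283 and 1.60% ± 1.05, without overlap for these genes. For the other called genes, Syk was at 0.396% ± 0.0421 and 0.585% ± 0.139 with overlapping groups. Fcgr1a was at 0.39% ± 0.0645 and 0.593% ± 0.123, with the highest CL rat and the lowest FL rat both at 0.463%. Lyn was at 2.17% ± 0.126 and 2.05% ± 0.432, Ptpn6 at 1.83% ± 0.129 and 1.63% ± 0.341, and Fcgr3a at 0.33% ± 0.0955 and 0.313% ± 0.0376, with overlapping groups for these genes. Without Gpnmb, a choice made after seeing the data, the marker sum was 371.8, 346.3 and 355.5 FPKM in the CL rats and 645.9, 615.3 and 397.4 FPKM in the FL rats. Against that sum Syk (0.4% ± 0.0427 and 0.703% ± 0.203) and Fcgr1a (0.394% ± 0.065 and 0.704% ± 0.154) no longer overlapped or met between the groups. Lyn, Ptpn6 and Fcgr3a still overlapped, with means that were then higher in the FL group, and Fcgr2b was still lower in every FL rat (7.2% ± 0.484 and 4.4% ± 0.999). The level of Fcgr2b itself did not pass, at means of 25.8 and 23.7 FPKM (adjusted p = 0.571 by limma), while both marker sums were higher in every FL rat. Fc receptors are also known from the sinusoidal endothelium, so a share of the macrophage marker sum is not a level per macrophage. FL12 had the lowest macrophage marker sum of the FL rats and the highest level of Lilrb4.

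Markers of other cell types were counted in the same way, again beside the 9.29% of all genes tested that were called higher. The sums are over all markers of a list that were in the table, tested or not. Of 9 tested stellate cell or myofibroblast markers 5 were called higher (55.6%), with sums of 90.06, 93.48 and 86.86 FPKM in the CL rats and 212, 555.3 and 506.2 FPKM in the FL rats (most abundant Col3a1). Of 5 tested neutrophil markers 3 were called higher (60%), with sums of 0.53, 1.07 and 1.26 FPKM in the CL rats and 5.61, 2.39 and 4.94 FPKM in the FL rats (most abundant S100a8), while Mpo and Elane, which neutrophil precursors of the marrow express most, were listed at 0 in every CL rat and at no more than 0.06 FPKM in an FL rat. Of 9 tested dendritic cell markers 2 were called higher (22.2%), with sums of 6.65, 6.57 and 6.17 FPKM in CL and 12.44, 14.57 and 14.46 FPKM in FL rats (most abundant Irf8). Of 10 mast cell markers 2 were called higher (20%), with sums of 5.39, 3.71 and 4.18 FPKM in CL and 7.71, 7.01 and 11.28 FPKM in FL rats (most abundant over all 6 rats Hdc, though not in the CL group alone, with 1.12, 0.80 and 4.11 FPKM in the FL rats). Of 13 T and NK cell markers 2 were called higher (15.4%), with sums of 13.55, 12.08 and 12.82 FPKM in CL and 24.94, 32.96 and 26.45 FPKM in FL rats (most abundant Cd4, which macrophages of the rat also carry). Of 4 platelet markers 1 was called higher (25%), with sums of 6.47, 5.61 and 4.59 FPKM in CL and 8.26, 8.99 and 10.03 FPKM in FL rats (most abundant over all 6 rats Itga2b, though not in the FL group alone). No marker was called by limma among 9 of hepatocytes (sums of 51648 to 54134 and 45431 to 46437 FPKM, most abundant Alb, 1 higher and 0 lower at an unadjusted p under 0.05), 9 of sinusoidal endothelium (89.42 to 98.28 and 96.84 to 119.3 FPKM, most abundant over all 6 rats Kdr, though not in the FL group alone, 3 higher and 0 lower), 5 of B cells (2.69 to 2.86 and 4.2 to 5.15 FPKM, most abundant Cd22, 2 higher and 0 lower) and 5 of erythroid cells (92 to 162.9 and 50.11 to 130.6 FPKM, most abundant Hbb, 0 higher and 1 lower). At an unadjusted p under 0.05, 31.5% of all genes tested were higher and 4.04% lower. Among the hepatocyte markers, every FL rat was below every CL rat for Alb, Apob, Ttr and Hnf4a, and above for Apoa1 and Tf. Alb was at 32272 ± 1010 FPKM in CL and 24803 ± 572 FPKM in FL rats (SD, n = 3). Its log2 difference was -0.38 with an SE of 0.98 by limma, so the lack of calls does not show that these markers were unchanged. The part of these cell types in the results on the 9 genes was not tested.

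The genes whose pattern over the 6 rats was most like that of 3 of the 9 were sought among 10159 protein-coding genes with a mean FPKM of 1 or more, by the root mean square distance of mean-centred log2 values. For Fcer1g the nearest was Spi1, which encodes the myeloid transcription factor PU.1, at a distance of 0.114, with 2.65, 5.51 and 4.23 FPKM in the CL rats and 12.37, 14.67 and 8.42 FPKM in the FL rats. Next came Clec4a1 (0.175), Tyrobp (0.200), Evi2b (0.203) and Ptprn (0.219). For Syk the nearest were Plcb2 (0.075), Prex1 (0.086), Cd4 (0.088), Elmo1 (0.095) and Iqgap1 (0.101). For Fcgr2b, whose groups overlapped, they were Atg13 (0.061), Stard5 (0.063), Bmf (0.064), Srsf9 (0.067) and Klhl24 (0.072).

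Of the 28 genes that lie within 2 places of one of the 9 in the RefSeq order, 18 were tested, 2 were called higher and 1 lower. Of all genes tested 9.29% were called higher and 0.935% lower, so the share of neighbours called higher was near that of all genes. Both that were higher, Lilrb3 and Lilra5, lie within 2 places of Lilrb4 on chromosome 1 and belong to its receptor family. Lilra5 was at 2.92, 2.83 and 2.56 FPKM in the CL rats and at 5.96, 6.79 and 6.09 FPKM in the FL rats (log2 fold change 1.15, SE 0.13, adjusted p = 0.00308 by limma). Lilrb3 was at 0.07 to 0.11 FPKM in CL and 0.23 to 0.74 FPKM in FL rats (log2 fold change 1.58, SE 0.42, adjusted p = 0.0383 by limma). With a CL mean of 0.0867 FPKM, Lilrb3 passed the filter on low values only through the FL group. It was not called without CL5, CL6, CL7, FL2 or FL12, with a pseudocount of 1, without the filter on low values, or after median scaling or quantile normalization (0.0329 to 0.192 over the alternatives), and reads of these related genes could also be split. The lower one was Nfil3, near Syk on chromosome 17, at 18.7 ± 3.16 FPKM in CL and 9.52 ± 3.3 FPKM in FL rats (SD, n = 3; log2 fold change -1.01, adjusted p = 0.0249 by limma). It was not called without CL5, CL6, CL7, FL5 or FL12, with a pseudocount of 1, without the filter on low values or with no trend in the prior variance (0.00475 to 0.0877 over the alternatives).

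The promoters of the 9 genes were searched for GAGGAA, the core of the motif of PU.1, on both strands of the 250 bases before the start of the gene in RefSeq (GRCr8). Promoters of 5 of the 9 genes were in that table, matched by symbol, with 6 promoters in all, and 4 of these 6 promoters held the letters, as did 23.3% of all 33469 promoters. Fcer1g, Fcgr1a, Fcgr2b and Lyn had no entry, and Ptpn6 had no match in this window. Of the 4 promoters with a match 1 is of Fcgr2a, a gene at or near 0 FPKM in every rat, and it held 2 matches, at bases -143 and -102 from the start of the gene. The matches of the called genes Lilrb4 and Syk and of Fcgr3a are shown with 20 bases on either side, 5′ to 3′ on the strand of the gene, with the match in capitals (TTCCTC where it is on the other strand). Counted from the start of the gene, they begin at base -183 (Lilrb4, gene on the minus strand, chr1:78853410-78853455), at base -62 (Syk, gene on the minus strand, chr17:12813310-12813355) and at base -54 (Fcgr3a, gene on the plus strand, chr13:85782562-85782607). A match of 6 letters is a description and not a binding site.
Lilrb4: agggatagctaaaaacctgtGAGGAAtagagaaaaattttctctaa
Syk: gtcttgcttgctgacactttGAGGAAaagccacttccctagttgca
Fcgr3a: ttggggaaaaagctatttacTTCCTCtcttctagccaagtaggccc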

How the data were processed

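Total RNA of 6 rat livers had been sequenced by the authors after removal of ribosomal RNA. The authors removed adapters and low-quality bases with FASTX-Toolkit, aligned reads with TopHat2, kept reads with a single position, and deposited FPKM per gene with 2 decimals; the genome was named GRCh38, a human build, although the table carries rat Ensembl identifiers, so no coordinates of the table are given. The version of TopHat2, the gene annotation and the strand setting are not given in the sources used here. Groups and numbers of the rats came from the sample labels, and 2 further columns of values, which match no sample, were not used.

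All genes were fitted with limma 3.58.1 (R 4.3.3) on log2(FPKM + 0.1), FL against CL, with a prior variance following the mean, after genes whose mean lay under 0.1 FPKM were left out. Adjusted p-values of genes are from limma with Benjamini-Hochberg adjustment over 14864 genes, and calls also needed a 2-fold change. The method was tested on simulated data. Group values are means with SD over 3 rats. Ratios and other tables were made with Python 3.11.15, numpy 2.4.6, pandas 2.3.3 and scipy 1.17.1, and plots with matplotlib 3.10.9. The confidence level of intervals is 95%.

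The members and lists were chosen with earlier results of these data known. The 8 related lists held 138 symbols, of which 12 were not found in the table and 14 are also in the 11 marker lists; Grb2 has 2 rows. Named from each list were the most abundant gene over all 6 rats, up to 3 called genes with the largest change in each direction, and a fixed set of central genes; Src, Pstpip1, Zap70, Nfil3 and Gpnmb were named after their values were seen. Some genes of the lists are counted but not reported singly here. No 2 rats shared more than 2.54% of values above 0, so none was counted as a duplicate. Total read counts were not used. Steps in the low values of U6 genes gave a relative depth of 1, 0.66 and 0.849 for CL5, CL6 and CL7 and of 0.68, 0.755 and 0.69 for FL2, FL5 and FL12, with 87.2% to 97.7% of values on whole steps, within 0.006 FPKM plus 0.02 FPKM for each step. Alternatives were other pseudocounts, filters, scalings and priors, no limit on the fold, and leaving out each rat.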

Additional observations from a re-analysis of the deposited data

How the results depend on the processing

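All 4 calls among the 9 genes held without each of the 6 rats (4 to 4 called), after median scaling, with a pseudocount of 0.01, with a filter at 1 FPKM, with no trend and with a robust prior, while 2 were called with a pseudocount of 1 and 2 after quantile normalization (Fcer1g and Lilrb4 in both) and 3 without a filter (not Fcer1g). Of all genes, 1381 were called higher and 139 lower; these counts were 462 and 72 with a pseudocount of 1, 846 and 78 without a filter, 453 and 231 after quantile normalization, and 2518 and 288 with no limit on the fold, and 854 and 824 were called higher with the filter at 1 FPKM and after median scaling. Leaving out 1 rat gave 740 to 1831 called higher (740 without CL7, 745 without FL5) and 81 to 160 called lower (81 without CL6 or CL7). Of the related genes, 21 were called higher with a pseudocount of 1, 22 after quantile normalization and 33 to 44 without 1 rat. The log2 ratio of Fcgr2a to Fcgr2b turned to -0.036 without FL5 (-0.036 to 0.38 over the rats left out), and since Fcgr2a is at or near 0 the added 0.1 largely sets this ratio. Fcgrt turned to -0.136 and -0.048 and Ptpn11 to -0.089 and -0.077 after median scaling and quantile normalization, and Zap70 to -0.068 after the latter. Against the sum of macrophage markers without Gpnmb, the differences of Lyn, Ptpn6 and Fcgr3a turned to 0.251, 0.0961 and 0.0365 percentage points. The cause of these changes was not tested. No paired analysis was made, since the groups held different rats, which the study divided at random, and a shared rat number is not a pair. Groups of 3 rats limit every test, and genes near 0.1 FPKM, such as Fcrl2 or the controls of Lilrb4, rest on few reads.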
